A study of Mus musculus with 6 samples.

Results

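Transcripts of 10 genes that make peptides for MHC class I molecules or load them were examined in MC38 colon carcinoma cells sorted out of tumour-bearing mouse livers. The genes were B2m, Tap1, Tap2, Tapbp, Psmb8, Psmb9, Psmb10, Psme1, Psme2 and Erap1, taken as every probe annotated to them on the array. They are 10 of 19057 genes with a probe of their own, and they carry 18 probes. In the DT group, CD11bDTR transgenic mice received diphtheria toxin (DT) by intraperitoneal injection on days 7 and 9 after MC38 cells had been injected into the spleen. In the PBS group, mice of the same genotype received PBS on the same days, and all livers were collected on day 10. The toxin receptor of these mice is driven by the CD11b promoter, which host myeloid cells such as macrophages and neutrophils use, and DT is meant to kill the cells that carry it. Each group held 3 samples, and an effect of DT itself cannot be told apart from that of the depletion, because mice without the transgene are not among the samples. The labels give neither the age of the mice nor the sort gate. They also do not say whether a sample is 1 mouse or a pool, so that p-values measure a spread between samples that may be technical.

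MHC class I molecules show fragments of a cell's own proteins to CD8 T cells. Proteasomes cut the proteins, and under interferon-gamma the catalytic subunits Psmb8, Psmb9 and Psmb10 take the places of Psmb5, Psmb6 and Psmb7 to form the immunoproteasome, on which the activator made of Psme1 and Psme2 can sit. The transporter of Tap1 and Tap2 moves peptides into the endoplasmic reticulum, Erap1 trims them there, and the tapasin protein of Tapbp bridges the transporter to a heavy chain that is paired with B2m. Tumour cells that lose this machinery can escape T cells, which is why its level in a tumour is of interest.

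Psmb9, Tap1, Psmb8 and Tap2 stand next to each other in this order among the protein-coding genes of mouse chromosome 17, where Tapbp also lies, in the RefSeq annotation of GRCm38.p6. B2m is on chromosome 2, Psmb10 on 8, Psme1 and Psme2 on 14 and Erap1 on 13. RefSeq promoters were at hand for 9 of the 10 genes. The 225 bases between the start sites of Psmb9 and Tap1, which are read in opposite directions, are printed first because both genes use them, then the 250 bases before the starts of B2m, Tapbp and Psme2, the light chain and the pair of genes that came nearest to the threshold below. Coordinates are chr17:34187331-34187555, plus strand, for Psmb9 and Tap1, chr2:122147437-122147686, plus strand, for B2m, chr17:33919228-33919477, plus strand, for Tapbp, and chr14:55591102-55591351, minus strand, for Psme2, all in GRCm38.p6. Capitals mark matches on either strand to 4 motifs. They are an interferon-stimulated response element (GAAA and GAAA with any 2 bases between), a gamma-activated site (TTCNNNGAA), an NF-kappaB site (GGG and TTTCC with any 2 bases between) and a GC box (GGGCGG).
Psmb9 and Tap1: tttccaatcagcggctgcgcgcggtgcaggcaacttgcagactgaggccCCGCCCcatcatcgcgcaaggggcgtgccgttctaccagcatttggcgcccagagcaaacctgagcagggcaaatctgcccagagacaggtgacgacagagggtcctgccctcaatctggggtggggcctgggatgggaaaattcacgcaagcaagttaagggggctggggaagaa
B2m: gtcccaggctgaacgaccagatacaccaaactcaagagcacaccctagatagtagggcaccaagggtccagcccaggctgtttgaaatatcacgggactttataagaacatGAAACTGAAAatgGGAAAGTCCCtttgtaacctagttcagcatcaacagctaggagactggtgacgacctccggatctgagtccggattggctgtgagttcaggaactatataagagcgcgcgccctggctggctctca
Tapbp: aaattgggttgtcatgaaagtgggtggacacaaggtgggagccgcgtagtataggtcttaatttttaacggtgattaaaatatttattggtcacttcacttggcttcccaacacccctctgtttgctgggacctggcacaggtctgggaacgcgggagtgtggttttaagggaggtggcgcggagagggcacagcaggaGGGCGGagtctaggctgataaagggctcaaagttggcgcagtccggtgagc
Psme2: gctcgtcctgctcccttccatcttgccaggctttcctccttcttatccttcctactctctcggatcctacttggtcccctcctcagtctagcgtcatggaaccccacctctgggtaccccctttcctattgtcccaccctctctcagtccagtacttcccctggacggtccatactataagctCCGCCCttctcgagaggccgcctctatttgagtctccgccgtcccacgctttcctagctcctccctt
B2m was the 1 member of 9 with the response element, which 2.98% of 32851 promoters of this length held, and also the 1 with the NF-kappaB site, held by 1.41%. A gamma-activated site, held by 7.02%, was found in 1 member, Psmb8. A GC box, held by 32.7%, was found in 5 members, among them Tapbp, Psme2, Psmb9 and Tap1. The match of Psmb9 and that of Tap1 are the same site, in the stretch between them, which is counted for both genes. No 2 of these matches overlap in the printed sequences, and a match of letters shows no binding. A missing match does not show that a site is absent, because only 1 form of each motif was searched, in 250 bases before a start.

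None of the 10 genes passed an adjusted p of 0.05 between DT and PBS in limma, where 103 of 9483 genes tested passed (1.09%), 31 higher (0.327%) and 72 lower (0.759%) in DT. At an adjusted p of 0.1, 2 of the 10 passed, Tapbp and Psme2, both higher in DT, beside 7.96% of all genes in either direction and 3.71% higher. All 10 were measured, with their brightest probe above background on every array except that of Erap1 in PBS replicate 2. Of the 10, 6 had higher and 4 lower means in DT, with a median difference of 0.17 on the log2 scale, against 0.01 over all genes tested. With no adjustment, 4 of them came under a p of 0.05, Tapbp, Psme2, Erap1 and Psmb8, all higher in DT, beside 23.9% of all genes in either direction and 12.0% higher. In 4 genes, Tapbp, Psme2, Psmb8 and B2m, every DT array lay above every PBS array, a separation seen in 15.0% of all genes, or 28.9% in either direction. Signals are given below as normalized log2 values after background correction and quantile normalization, and a difference is DT minus PBS with its standard error (SE).

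**Figure D1:**
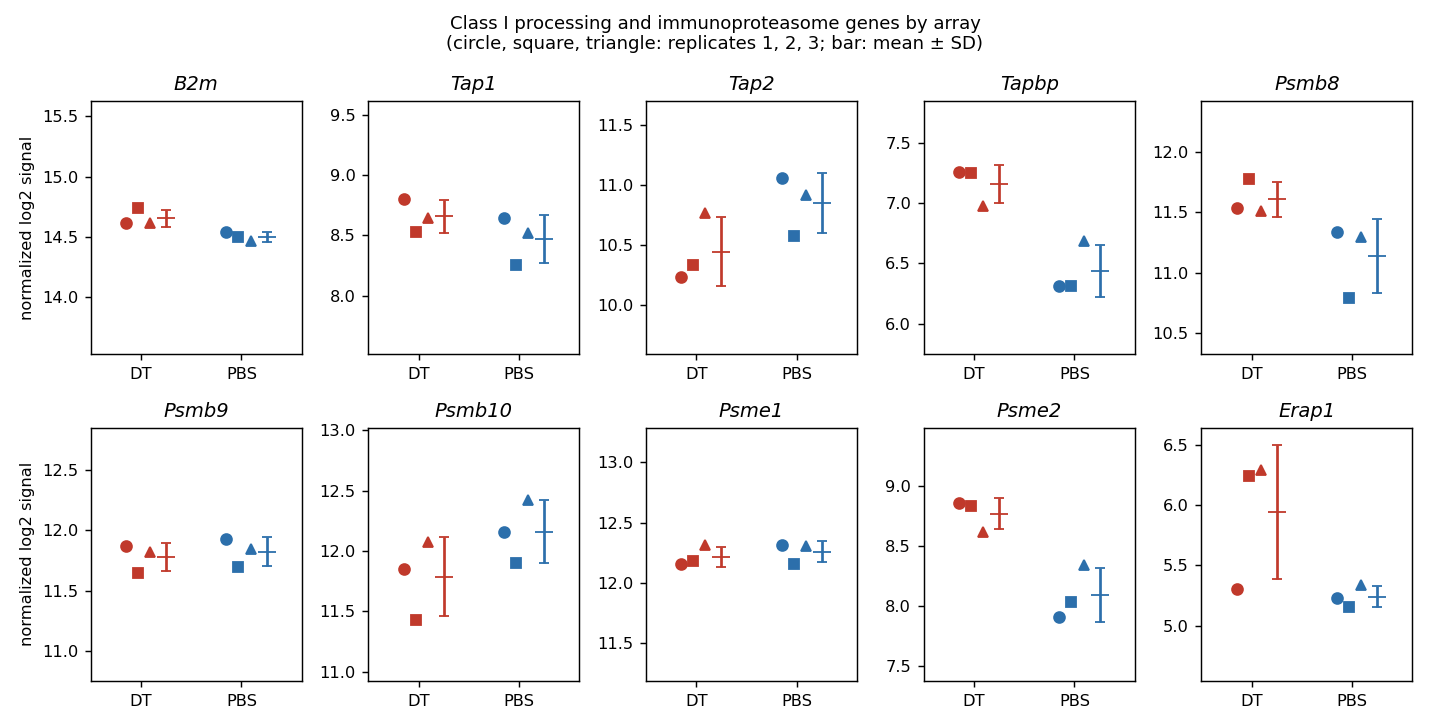
Normalized log2 signal (vertical axis, 2.1 log2 units high in each panel) of the brightest probe of each of the 10 genes on the 3 DT arrays and the 3 PBS arrays, with replicates 1, 2 and 3 as circles, squares and triangles and bars for mean ± SD. Tapbp, Psme2, Psmb8 and B2m show DT points above all PBS points, while Psmb9 and Psme1 overlap almost fully.

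Tapbp encodes tapasin, the chaperone of the peptide-loading complex, and gave the smallest p of the 10 genes. Its normalized signal was 7.26, 7.25 and 6.98 in the DT samples and 6.31, 6.31 and 6.68 in the PBS samples. Both groups were tight, and they did not overlap. The means of 7.16 ± 0.16 in DT and 6.44 ± 0.21 in PBS (SD, n = 3 each) differ by 0.72 (SE 0.17), or 1.65-fold with a 95% interval from 1.28 to 2.14 (limma, adjusted p = 0.0573). Before normalization the same probe gave signals of 230, 318 and 251 in DT and 222, 164 and 234 in PBS, so that the groups overlapped on that scale. Over 19 alternative settings the difference lay between 0.34, without background correction, and 0.85, and the adjusted p between 0.0322 and 0.747, and 7 of the 18 that kept the threshold of 0.05 put Tapbp past it. A second Tapbp probe, annotated to another transcript, was above background on all 3 DT arrays and on no PBS array. Its mean was at least 1.20-fold higher in DT when set against the lowest values above background. That figure does not cover the spread between samples. The measured means were 5.38 in DT and 4.83 in PBS (limma over every probe, adjusted p = 0.199).

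Psme2 encodes the beta subunit of the interferon-inducible proteasome activator. It gave 8.85, 8.83 and 8.62 in DT and 7.91, 8.03 and 8.34 in PBS. The DT arrays again lay above the PBS arrays, with PBS replicate 3 nearest to them, as it was for Tapbp. The difference was 0.67 (SE 0.17), or 1.59-fold with an interval from 1.23 to 2.06 (limma, adjusted p = 0.063), and the adjusted p ranged from 0.0241 to 0.747 over the alternatives, 5 of 18 of which passed at 0.05. Signals before normalization were 459, 728 and 531 in DT and 433, 259 and 470 in PBS, and overlapped. Its partner Psme1, the alpha subunit, gave 12.15, 12.18 and 12.31 in DT and 12.31, 12.16 and 12.31 in PBS. The Psme1 difference of −0.04 (SE 0.14; limma, adjusted p = 0.884) has an interval from 0.777-fold to 1.21-fold, and a second Psme1 probe gave 0.06 (SE 0.10). Whether the difference of Psme2 exceeds that of Psme1 was not tested.

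The inducible catalytic subunits of the proteasome gave differences of both signs. Psmb8, which carries the chymotrypsin-like site, had values of 11.54, 11.78 and 11.51 in DT and 11.34, 10.79 and 11.30 in PBS. The groups did not overlap, PBS replicate 2 was the lowest array, and the difference was 0.47 (SE 0.18; limma, adjusted p = 0.162). A second Psmb8 probe of the same transcript, also above background on every array, gave 8.38, 8.09 and 8.19 in DT and 8.19, 8.01 and 8.33 in PBS. There the groups overlapped, with a difference of 0.05 (SE 0.12; limma over every probe, adjusted p = 0.943), so that the 2 probes disagree in size. The difference of the brighter probe was 0.29 without PBS replicate 2, and that of the gene 0.26 with both probes averaged.

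Psmb9 gave 11.87, 11.65 and 11.82 in DT and 11.93, 11.69 and 11.85 in PBS. Each group covered the same narrow range, and the difference of −0.05 (SE 0.15; limma, adjusted p = 0.881) has an interval from 0.769-fold to 1.22-fold. Psmb10 gave 11.85, 11.43 and 12.07 in DT and 12.16, 11.90 and 12.42 in PBS. DT replicate 2 was its lowest and PBS replicate 3 its highest array, the groups overlapped, and the difference was −0.37 (SE 0.20; limma, adjusted p = 0.291). It was −0.20 without DT replicate 2 and −0.24 without PBS replicate 3. The other Psmb10 probe gave −0.28 (SE 0.16) in the fit over every probe.

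**Figure D2:**
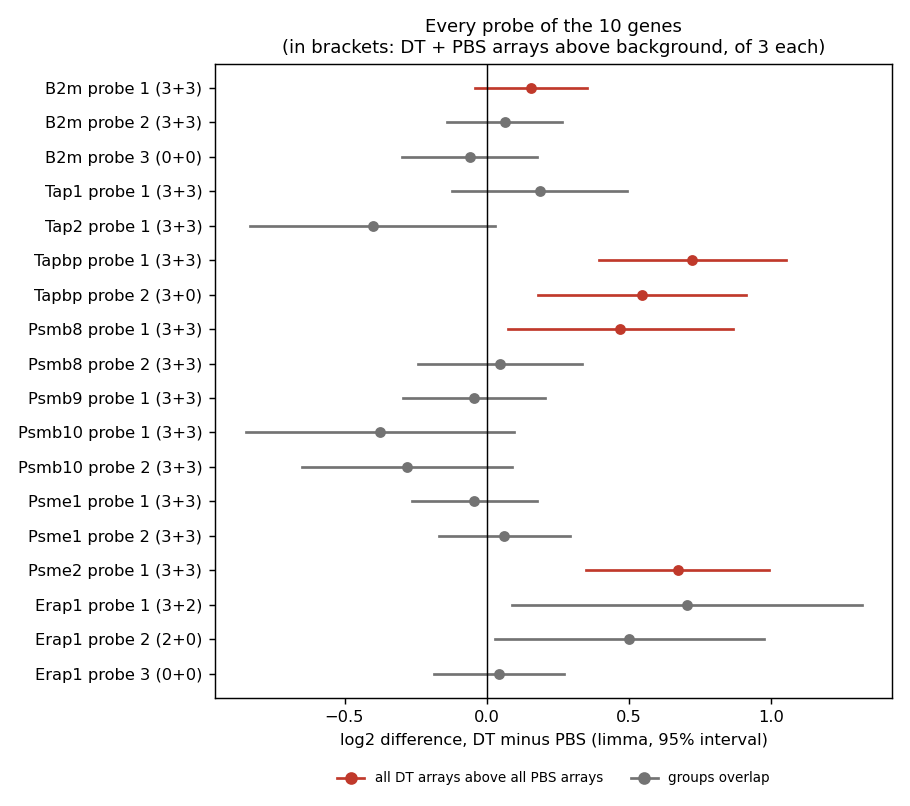
Difference in log2 signal (horizontal axis, DT minus PBS) with its 95% interval from limma for each of the 18 probes of the 10 genes, with the number of DT and PBS arrays above background in brackets. The intervals of 6 probes lie wholly above 0, those of 2 Tapbp probes, 2 Erap1 probes, the Psme2 probe and 1 Psmb8 probe, whereas both probes of Psmb10 lie below it with intervals that reach across 0.

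Of the transporter subunits, Tap1 gave 8.80, 8.53 and 8.64 in DT and 8.64, 8.25 and 8.52 in PBS. Its difference of 0.19 (SE 0.16; limma, adjusted p = 0.515) was within the overlap of the groups, and it was 0.08 without PBS replicate 2 and 0.11 without DT replicate 1. Tap2, its partner in the transporter, gave 10.24, 10.33 and 10.77 in DT and 11.05, 10.57 and 10.92 in PBS, with PBS replicate 2 inside the DT range. The Tap2 difference was −0.40 (SE 0.19; limma, adjusted p = 0.236), with an interval from 0.562-fold to 1.02-fold. Tap1 and Psmb9, which share the stretch of sequence printed first, thus differed by 0.19 and −0.05, both within the spread between samples.

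Erap1 encodes the aminopeptidase that trims peptides to length. Its brightest probe gave 5.30, 6.24 and 6.29 in DT and 5.23, 5.16 and 5.33 in PBS. DT replicate 1 lay at the PBS level and the other DT arrays well above it, which gave a difference of 0.70 (SE 0.25; limma, adjusted p = 0.13). A second Erap1 probe was above background on 2 DT arrays and on no PBS array. Its measured means were 5.36 in DT and 4.86 in PBS (limma over every probe, adjusted p = 0.348), with overlapping groups. No least fold is given for it, because DT replicate 3 was itself not above background. The probe was not kept by the filter, and its highest array was DT replicate 1, the lowest DT array of the first probe. The third Erap1 probe was not above background on any array.

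B2m, the light chain shared by class I molecules, gave 14.62, 14.74 and 14.62 in DT and 14.54, 14.50 and 14.46 in PBS. The DT arrays lay above the PBS arrays by a narrow margin, with a difference of 0.15 (SE 0.14; limma, adjusted p = 0.531). Its signals before normalization were 23565, 27698 and 25995 in DT and 23853, 19546 and 24200 in PBS, on arrays whose brightest probes reached between 29170 and 32987. Whether its spots were near saturation was not tested. A second bright B2m probe gave 0.06 (SE 0.08) with overlapping groups, and the third was not above background on any array. Over every probe on the array, 0 of the 18 member probes and 0 of all 45281 probes (0.00%) passed in limma, while 6 of the 18 and 13.1% of all had an unadjusted p under 0.05.

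Because each inducible subunit replaces a constitutive one, the difference between partners was taken within each array and set against its PBS mean. Psmb8 minus Psmb5 stood at −0.26, 0.10 and −0.09 in DT and at 0.33, −0.35 and 0.02 in PBS. Psmb9 minus Psmb6 stood at 0.15, 0.13 and 0.09 in DT and at 0.20, −0.26 and 0.06 in PBS. Both pairs overlapped fully, with the DT values inside the PBS range. Psmb10 minus Psmb7 stood at −0.71, −0.54 and −0.29 in DT and at 0.14, −0.46 and 0.32 in PBS. This was the widest shift of the pairs, at −0.51 between the group means, but PBS replicate 2 lay within the DT range. The mean over the pairs was −0.16 ± 0.10 in DT and 0.00 ± 0.31 in PBS (SD, n = 3 each), again inside the PBS spread. Of the constitutive partners, Psmb5 was higher in DT on every array, at 9.44, 9.32 and 9.24 against 8.65, 8.77 and 8.92 in PBS, by 0.55 (SE 0.15; limma, adjusted p = 0.0779). Psmb6 and Psmb7 gave −0.17 (SE 0.15) and 0.14 (SE 0.19), with overlapping groups.

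**Figure D3:**
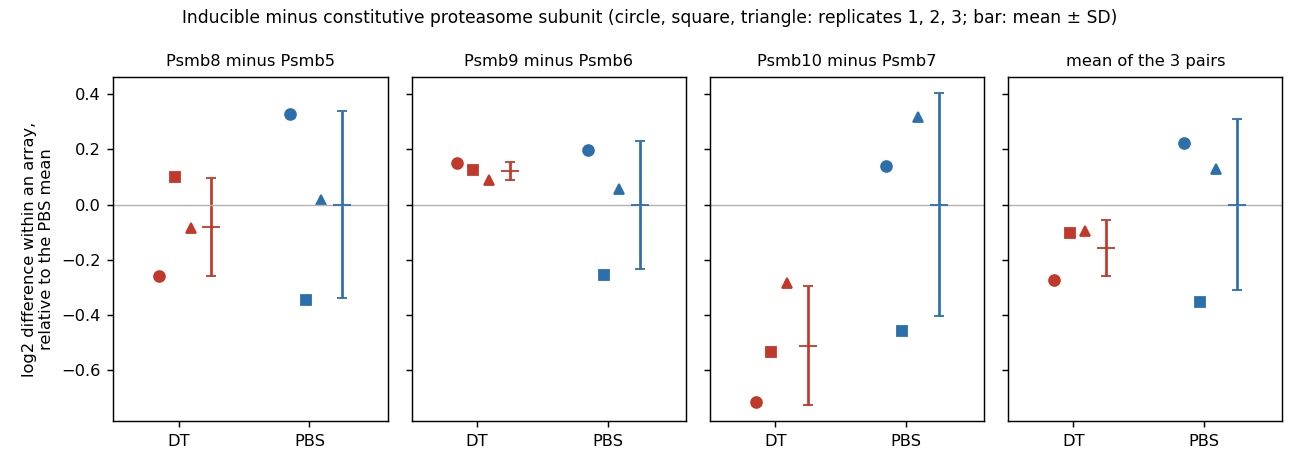
Log2 signal of each inducible proteasome subunit minus that of its constitutive partner within an array, relative to the PBS mean (vertical axis), for the 3 DT and 3 PBS arrays, with bars for mean ± SD. PBS replicate 2, the squares on the right, is the lowest PBS array in every panel, and the DT arrays overlap the PBS arrays in all 4.

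The class I heavy chains, which B2m and the loading complex serve, had a median difference of 0.15 over 9 measured genes, and 0 passed in limma. Of these, 8 were positive, and 4 had an unadjusted p under 0.05, all higher in DT, beside 12.0% of all genes higher and 23.9% in either direction. In 3 of the chains every DT array lay above every PBS array, beside 15.0% of all genes. Near-identical heavy-chain genes can share a probe, so that values of single genes are uncertain. Among the classical chains, H2-D1 gave 13.38, 13.44 and 13.27 in DT and 13.08, 13.06 and 12.94 in PBS, a difference of 0.34 (SE 0.14; limma, adjusted p = 0.189). H2-K1 gave 12.92, 13.26 and 13.14 in DT and 13.25, 12.84 and 13.16 in PBS, with fully overlapping groups and a difference of 0.02 (SE 0.17; limma, adjusted p = 0.959). The other H2-K1 probes gave 0.54 (SE 0.52) and 0.56 (SE 0.24) over every probe, also with overlapping groups, and the probes of H2-D1 ranged from 0.34 to 0.45. Of the nonclassical chains, H2-Q6 gave 0.50 (SE 0.16), H2-T23 0.39 (SE 0.17) and H2-M3 0.39 (SE 0.15), and the adjusted p from limma was 0.106 for the first, 0.209 for the second and 0.153 for the third. By their brightest probes the remaining chains had overlapping groups, with differences of 0.15 for H2-Q1, 0.15 for H2-Q7, 0.12 for H2-T22 and −0.03 for H2-T10. Other H2-T10 probes had the opposite sign over every probe. They gave 0.56 (SE 0.19), with all DT arrays above all PBS arrays, and 0.16 (SE 0.22). The 3 probes of H2-T23, the mouse chain known for engaging an inhibitory receptor on NK cells, ranged from 0.39 to 0.87 over every probe. With all kept probes of a gene averaged, the median of the heavy chains was 0.37. With arrays left out in turn it lay between 0.10, without DT replicate 2, and 0.35, without PBS replicate 2, and leaving out DT replicate 1 gave 0.31, DT replicate 3 gave 0.24 and PBS replicate 1 gave 0.23.

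**Figure D4:**
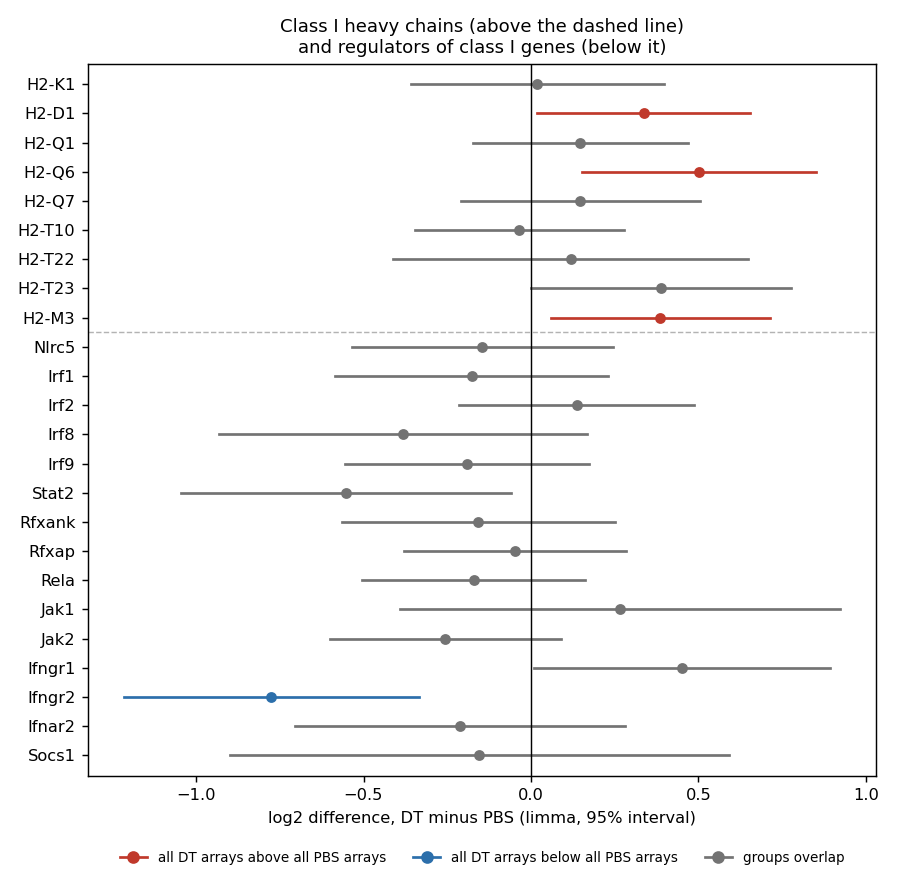
Difference in log2 signal (horizontal axis, DT minus PBS) with its 95% interval from limma for 9 class I heavy chains and 15 regulators of class I genes. H2-D1, H2-Q6 and H2-M3 have all DT arrays above all PBS arrays, and Ifngr2 has all DT arrays below.

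Other loading and trafficking factors had a median of 0.16 over 9 genes, and 0 passed in limma, with 1 at an unadjusted p under 0.05, beside 23.9% of all genes. That gene was Bcap31, which sorts class I molecules out of the endoplasmic reticulum, at 0.44 (SE 0.16; limma, adjusted p = 0.145). The oxidoreductase Pdia3 of the loading complex gave 0.16 (SE 0.15), the chaperone Calr −0.05 (SE 0.25) and the tapasin relative Tapbpl 0.10 (SE 0.17). The translocon subunit Sec61a1 gave the most negative value of the list, −0.32 (SE 0.18), and its partner Sec61b 0.25 (SE 0.15), the latter with all DT arrays above all PBS arrays. A second Sec61a1 probe gave −0.70 (SE 0.18) over every probe, with all DT arrays below all PBS arrays. Second probes of Bcap31 and Sec61b gave 0.58 (SE 0.17) and 0.42 (SE 0.09) over every probe, with all DT arrays above all PBS arrays. The chaperone Hspa5 gave 0.28 (SE 0.28), the peptidase Tpp2 0.23 (SE 0.16) and the glucosidase subunit Ganab 0.00 (SE 0.15). Other Ganab probes ranged from −0.19 to 0.60 over every probe, with overlapping groups. Proteasome activators and assembly factors had a median of 0.04 over 6 genes, with 0 past the threshold in limma. The 1 gene at an unadjusted p under 0.05, beside 23.9% of all genes, was the assembly chaperone Psmg1 (0.52, SE 0.15; limma, adjusted p = 0.0925). Pomp, which matures new immunoproteasomes, gave −0.05 (SE 0.16), and the nuclear activator Psme3 0.05 (SE 0.17). The activator Psme4 gave 0.03 (SE 0.17), and the assembly chaperones Psmg2 and Psmg3 gave −0.27 (SE 0.16) and 0.27 (SE 0.15). Other Psmg2 probes had the opposite sign over every probe, at 0.20 (SE 0.09), with all DT arrays above all PBS arrays, and 0.04 (SE 0.12).

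Of 15 regulators of class I genes that could be measured, 12 had negative differences and 0 passed in limma, and their median was −0.17. The unadjusted p was under 0.05 for 3 of these, beside 23.9% of all genes. Ifngr2, a chain of the interferon-gamma receptor, gave 10.91, 11.03 and 11.46 in DT and 11.85, 12.20 and 11.67 in PBS. All DT arrays lay below all PBS arrays, with a difference of −0.77 (SE 0.20; limma, adjusted p = 0.0676). The other Ifngr2 probes had the opposite sign, at 0.09 (SE 0.15) and 0.53 (SE 0.14) over every probe, and with all kept probes averaged the gene stood at −0.05. Its partner chain Ifngr1 gave 0.45 (SE 0.20), the interferon signal transducer Stat2 −0.55 (SE 0.22) and the kinase Jak2 −0.26 (SE 0.16), and limma gave adjusted p-values of 0.203 for Ifngr1, 0.17 for Stat2 and 0.342 for Jak2. Irf1, which drives many class I genes, gave −0.18 (SE 0.18), and Nlrc5, the transactivator of class I genes, −0.15 (SE 0.18). These last genes were named after their values were seen.

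Genes that interferon-gamma induces outside the class I pathway numbered 14 with a value, 7 positive and 7 negative around a median of 0.06, and 0 passed in limma. Without adjustment 3 came under a p of 0.05, all lower in DT, beside 11.9% of all genes lower and 23.9% in either direction. They were the adhesion molecule Icam1 at −0.46 (SE 0.15) and the GTPases Irgm1 and Iigp1, which act against pathogens inside cells, at −0.44 (SE 0.15) and −0.71 (SE 0.25). This Iigp1 probe was above background on only 1 DT array but on all 3 PBS arrays, so that its PBS arrays alone met the filter. Other probes of both GTPases had the opposite sign over every probe. For Irgm1 they gave 0.45 (SE 0.11), with all DT arrays above all PBS arrays, and 0.20 (SE 0.35), and for Iigp1 0.04 (SE 0.12). Cxcl9, a T cell chemoattractant, gave 0.67 (SE 0.31), and its lowest array was PBS replicate 2. That array was also the lowest for Tap1, Psmb8 and Erap1 among the 10 genes.

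Averaged over the 10 genes and set against the PBS mean, the arrays stood at 0.15, 0.20 and 0.27 in DT and at 0.04, −0.16 and 0.12 in PBS. By root mean square distance between centred profiles over the 6 arrays, the genes nearest to this mean were Lrrk2, Armh3, Amigo2, Bclaf1 and Virma. Their distances were from 0.0355 to 0.0406 on the log2 scale, and their differences were from 0.14 to 0.24, none past the threshold in limma.

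Leukocytes express class I and immunoproteasome genes strongly, and markers of several kinds of leukocyte differed between the groups. Of the macrophage and monocyte markers, 13 of 20 were measured, 12 of these were lower in DT, and 0 passed in limma. An unadjusted p under 0.05 was found for 9, all lower in DT, beside 11.9% of all genes lower and 23.9% in either direction. The summed normalized signal of the 13 was from 2148 to 2646 in DT and from 2556 to 5900 in PBS, with PBS replicate 3 at the DT level. No array had Itgam (the gene of CD11b), Clec4f, Timd4, Ccr2 or Cd5l above background. Dendritic cell and MHC class II markers summed to between 1032 and 1315 in DT and between 1548 and 3371 in PBS over 7 of 13 genes. H2-Ab1 (−1.65) and H2-Eb1 (−1.53) fell (limma, adjusted p = 0.0459 for each), beside 0.759% of all genes lower. Of the 7, 5 were negative and 2 positive. In 4 of them, H2-Aa (−1.28) and Cd74 (−1.48) included, all DT arrays lay below all PBS arrays, beside 14.0% of all genes. Neither Flt3, Itgax, Xcr1, Cd209a nor Ciita was above background anywhere. Neutrophil markers summed to between 2560 and 3846 in DT and between 1424 and 2157 in PBS over 7 of 13 genes. Of these, Lcn2 and Retnlg were above background on all 3 DT arrays and on no PBS array, so that they were kept through the DT arrays alone. They rose (limma, adjusted p = 0.0193 for Lcn2 and 0.0273 for Retnlg), as did S100a8 (limma, adjusted p = 0.0417), beside 0.327% of all genes higher. The other neutrophil markers did not pass and differed in sign. S100a9 gave 2.09, with all DT arrays above all PBS arrays, and Csf3r −0.50, with all DT arrays below. Mmp9 gave −0.25 and Elane −0.21, and Cxcr2 and Mmp8 were never above background. Of 15 T and NK cell markers, 4 were measured, and Prf1 (−1.11) fell, beside 0.759% of all genes lower. Nkg7 gave −0.67, Cd3e −0.09 and Cd8b1 0.23. The 4 summed to between 4040 and 5700 in DT and between 7147 and 10194 in PBS, with no overlap. Their mean log2 signal relative to PBS, which weighs each gene alike, was from −0.52 to −0.23 in DT and from −0.36 to 0.21 in PBS, with overlap. Cd4, Cd8a, Cd2, Gzmb, Klrb1c and Ncr1 were never above background. Of 8 pan-leukocyte markers, 5 were measured, 0 passed in limma, and 4 were negative around a median of −0.62. Cd52 gave −1.19, with all DT arrays below all PBS arrays, Coro1a −0.79, Cd53 −0.62 and Rac2 −0.10, against 0.31 for Arhgdib. Their sum, from 4332 to 5104 in DT and from 3582 to 6103 in PBS, was mostly the signal of Arhgdib. None of 8 B and plasma cell markers could be measured. Fibroblast and stellate cell markers summed to between 35323 and 37770 in DT and between 23051 and 33876 in PBS over 9 of 14 genes, with no overlap and a median of 0.26. Of these, 0 passed in limma, 7 were positive, and in 4 all DT arrays lay above all PBS arrays, beside 15.0% of all genes. Among those 4 were Mfap4 (1.27) and Pdgfra (0.50). Of 4 measured endothelial markers, 3 were positive and 1 negative. Ramp2 (1.14) rose, beside 0.327% of all genes higher, while Flt1 gave −0.55. The 4 summed to between 712 and 793 in DT and between 593 and 635 in PBS, with no overlap. The 5 measured hepatocyte markers, none past the threshold, had −0.32 as their median, and Alb was never above background. The part of these cells in the values of the 10 genes was not tested, and fewer cells of a type cannot be told apart from less RNA per cell.

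**Figure D5:**
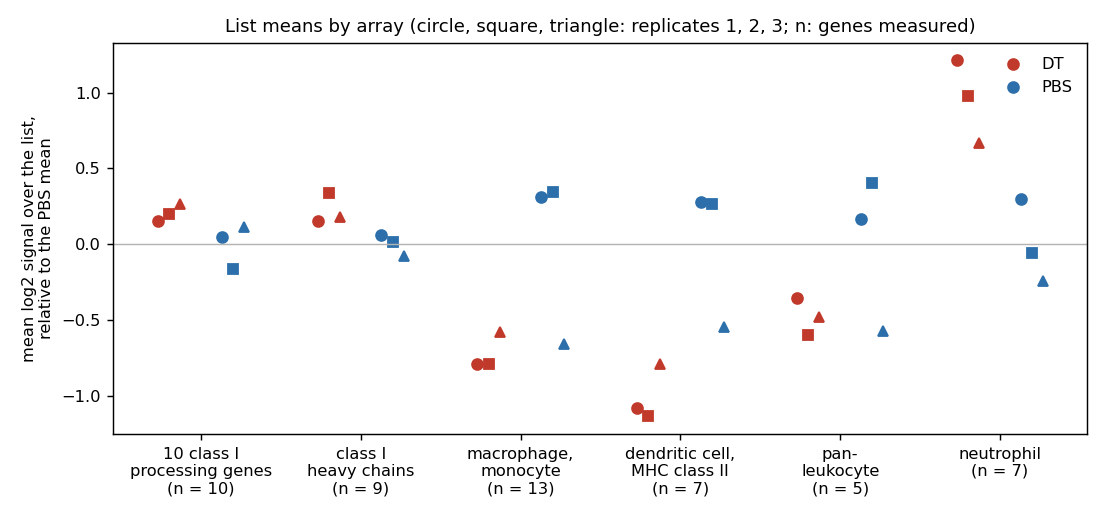
Mean log2 signal over each list of genes relative to its PBS mean (vertical axis) for the 3 DT and 3 PBS arrays, with replicates 1, 2 and 3 as circles, squares and triangles. The 10 class I processing genes lie between −0.16 and 0.27, a narrower band than the macrophage, MHC class II and neutrophil lists, and PBS replicate 3 lies at or near the DT arrays for the macrophage, MHC class II and pan-leukocyte lists.

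As to the label of the cells, 5 of 13 epithelial and colon carcinoma markers were measured, 0 of them passed, and Epcam, Krt18, Krt19, Krt20, Cdx2, Cldn3, Cldn4 and Vil1 were never above background. The measured ones included Sox9, at 11.80, 11.72 and 12.13 in DT and 11.96, 12.25 and 12.37 in PBS. Between 36.7% and 40.6% of the probes of an array lay above background, PBS replicate 2 had the lowest share and the lowest mean signal, and the number of arrays limits the precision of all values.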

How the data were processed

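Sorted MC38 cells of 3 DT and 3 PBS samples were measured on single-colour Illumina mouse bead arrays, from RNA amplified with an oligo-dT based kit, per the labels' protocols. The authors deposited, per the file headers, a mean bead signal per probe (a linear intensity, not normalized between arrays) and a detection p-value. They also deposited normalized log2 values, which served as an alternative; the labels do not say how these were made, nor which scanner was used.

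Probes were named from GEO's platform table, updated through Entrez identifiers, and 34885 of 45281 probes had 1 gene, 18 several and 10378 none named here. Normalization used limma 3.58.1 under R 4.3.3, function neqc (normexp background from the detection p-values, offset 16, quantile step, log2). The offset pulls fold changes of dim probes toward 0, and a shift common to all genes is lost in the quantile step. A probe was kept if its detection p was below 0.05 on 3 or more of 6 arrays (15 of the 18 member probes), and the brightest kept probe stood for a gene. The contrast of DT minus PBS was fitted by lmFit and eBayes, two-sided, with Benjamini-Hochberg adjustment over 9483 genes. The smallest p that an exact two-sided permutation over 3 and 3 samples allows is 0.1, so none is given. Where a fold is given for a probe above background on no array of a group, it is taken against the higher of its own value and the lowest value above background on each array. Such a fold does not cover the spread between samples.

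The 10 genes and all lists were chosen with earlier results of these data known, and got no test of their own. By rule the text may name every member, any measured gene of a pathway list with up to 13 of them, and the 4 with the smallest p of longer lists. It may also name markers past the threshold, the brightest 3 of each marker list, and the 5 nearest profiles. Other markers were named after their values were seen. On simulated data for DT against PBS over 9483 genes, a log2 change of 0.5 was recovered for 4 of 58 genes, of 1 for 35 of 64 and of 2 for 78 of 78. Same-numbered DT and PBS samples had deviations correlated at −0.10, −0.18 and 0.03, so the numbers were not taken as pairs. Promoter sequences are from RefSeq (GRCm38.p6), and motifs were chosen after the sequences were at hand. Figures were drawn with matplotlib 3.10.9.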

Additional observations from a re-analysis of the deposited data

How the results depend on the processing

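The count of the 10 genes past the threshold was 0, and it was 2 (Tapbp and Psme2) with a normexp offset of 50, probes above background on all arrays, an intensity trend, array weights or an adjusted p under 0.1. It was 1 without background correction (Psme2), and 1 with the deposited normalized values or a detection p under 0.01 (Tapbp). Leaving out each array gave 0 to 1, with Tapbp past the threshold without DT replicate 3 (adjusted p = 0.0453 in limma). It was 0 with scaling to a common median, no filter, the mean of all kept probes, the replicate block and the unmoderated model. Over all genes the count of 103 became 654, 558, 27 (scaling to a common median), 313 (deposited values), 0 (no filter, 2942 at an unadjusted p under 0.05), 264 (detection p under 0.01), 382 (all arrays), 772 (intensity trend), 1059 (array weights), 0 (unmoderated linear model, 1781 unadjusted) and 755 (adjusted p under 0.1), the first pair being the wider offset and no background correction. With the replicate number as a block it was 30, and Tapbp and Psme2 had adjusted p-values of 0.109 and 0.117 in limma; the replicate block changed no call among the 10 genes. Leaving out arrays gave 0 to 424: 3 without DT replicate 1, 0 without DT replicate 2 (1286 unadjusted), 424 without DT replicate 3, 61, 3 and 63 without PBS replicates 1, 2 and 3.

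The median of the 10 genes was between 0.10 and 0.23 with arrays left out in turn, and 0.30 under median scaling, which put all genes together at a median of 0.17. The inducible minus constitutive difference ranged from −0.33 to −0.05 with arrays left out. Psmb9 changed sign to 0.17 with median scaling and 0.024 with the deposited values, and lay between −0.11 and 0.022 with arrays left out (0.022 without DT replicate 2, 0.0062 without PBS replicate 1). Psme1 changed sign to 0.21 with median scaling, 0.061 with the deposited values and 0.0099 with the mean of all kept probes. The constitutive subunits had 1 gene past the threshold (Psmb5) with the wider offset, no background correction, the intensity trend, array weights or an adjusted p under 0.1, and the regulators 1 (Ifngr2) under the same settings, with probes above background on all arrays, and without DT replicate 3, so that leaving out arrays gave 0 to 1. Interferon-gamma induced genes had 1 without background correction, with the trend or with array weights, heavy chains 1 with array weights, and assembly factors 1 with array weights or an adjusted p under 0.1. The cause of these moves was not tested. Differences of 0.5 on the log2 scale lie below what 3 arrays a group recover reliably, so that a gene short of the threshold may still differ. Of the other 8 genes, 7 passed under none of the 19 settings, and Erap1 under none of the 17 that gave it a value. With a detection p under 0.01 or probes above background on all arrays it was left out, so that the counts there are out of 9; its difference was 0.22 without background correction and 0.43 with the wider offset. Median scaling gave 0.37 for Tap1, −0.18 for Tap2 and −0.14 for Psmb10.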
